A study of Mus musculus with 60 samples.

Results

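Neutrophils store antimicrobial proteins in granules that are filled in sequence as the cell matures, and 10 genes that encode granule proteins were followed here across 15 mouse tissues. The genes were taken by symbol from the deposited count table, which holds 54532 genes. They comprise 4 primary granule genes (Elane, Prtn3, Mpo and Ctsg), 4 secondary granule genes (Ltf, Camp, Ngp and Lcn2) and 2 tertiary granule genes (Mmp8 and Mmp9). The class of each gene was assigned for this report, and the table itself assigns none. The class of Mmp8 is open to choice, and an alternative counted it as secondary.

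The samples were whole tissues of female C57BL6/J mice aged 6 weeks, with no treatment named in the labels. There were 4 replicate libraries for each of 15 tissues and 60 libraries in all. All groups share strain, sex, age and perfusion of the circulation with buffered saline and EDTA, and they differ in tissue. The blood samples may also differ from the others in cell preparation. The tissues were bone marrow, blood, spleen, thymus, inguinal and mesenteric lymph node, lung, liver, kidney, heart, brain, skin, colon, small intestine and female reproductive tract. The labels of the blood samples disagree, since they name both whole blood and mononuclear cells. A mononuclear cell preparation is by its nature poor in mature neutrophils, so blood here is called blood and its neutrophil content is given by marker genes below.

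Neutrophils develop in the bone marrow from dividing promyelocytes, which transcribe the primary granule genes, to myelocytes and metamyelocytes, which transcribe the secondary granule genes, and then to band and segmented cells, which transcribe the tertiary granule genes. The messenger RNAs of the early stages are largely gone by the time the cell leaves the marrow, whereas the proteins persist in the granules. Primary granules carry serine proteases and myeloperoxidase, secondary granules carry iron-binding and antimicrobial proteins, and tertiary granules carry matrix metalloproteinases. Transcription of the primary granule genes is known to depend on ETS-family factors such as PU.1, and that of the secondary granule genes on C/EBP-family factors, among them C/EBP-epsilon.

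The genes lie on 5 chromosomes of the mm10 build. Prtn3 (chr10:79874476-79883174) and Elane (chr10:79886247-79888215) are neighbours on the plus strand, 3072 bp apart. The primary granule genes Mpo (chr11:87793581-87804413, plus strand) and Ctsg (chr14:56099881-56102574, minus strand) lie elsewhere. Of the secondary granule genes, Camp (chr9:109847379-109849617, minus strand), Ngp (chr9:110419747-110423012, plus strand) and Ltf (chr9:111019271-111042767, plus strand) lie within the same region, with 570129 bp between Camp and Ngp and 596258 bp between Ngp and Ltf. Lcn2 (chr2:32384633-32388252, minus strand), Mmp9 (chr2:164940780-164955850, plus strand) and Mmp8 (chr9:7558456-7568485, plus strand) complete the set. Prtn3 overlaps Plppr3 and Mpo overlaps the antisense gene Gm11505, both on the opposite strand, and no source used here says whether reads were assigned by strand.

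Upstream sequences from the RefSeq table of GRCm38.p6, the same assembly as mm10, matched 9 of the 10 genes, all but Mmp9, and 6 of them are shown. The 250 bases before each RefSeq start were searched on both strands for AGGAAGT and for TTGCNNAA, a C/EBP-type motif. AGGAAGT is an ETS-type motif that extends GGAA, the core bound by ETS-family factors. Both motifs were chosen after the sequences had been seen, and their matches did not overlap in Mmp8, which held both. Each sequence below is written 5′ to 3′ on the strand of its gene and stops before the annotated exon at the RefSeq start, and capitals mark the motif matches. The primary granule genes come in the order Elane (chr10:79886062-79886246, plus strand, between Prtn3 and Elane), Prtn3 (chr10:79879417-79879613, plus strand, within the annotated span of the gene but outside its exons) and Ctsg (chr14:56102575-56102824, minus strand, upstream of the gene).
Elane: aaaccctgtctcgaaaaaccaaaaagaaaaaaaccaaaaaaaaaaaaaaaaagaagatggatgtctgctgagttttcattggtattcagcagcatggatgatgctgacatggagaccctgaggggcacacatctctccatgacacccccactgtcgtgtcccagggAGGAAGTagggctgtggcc
Prtn3: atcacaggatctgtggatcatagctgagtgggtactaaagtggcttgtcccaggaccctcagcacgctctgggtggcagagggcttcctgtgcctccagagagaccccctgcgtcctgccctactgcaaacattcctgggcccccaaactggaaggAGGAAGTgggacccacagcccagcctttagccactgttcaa
Ctsg: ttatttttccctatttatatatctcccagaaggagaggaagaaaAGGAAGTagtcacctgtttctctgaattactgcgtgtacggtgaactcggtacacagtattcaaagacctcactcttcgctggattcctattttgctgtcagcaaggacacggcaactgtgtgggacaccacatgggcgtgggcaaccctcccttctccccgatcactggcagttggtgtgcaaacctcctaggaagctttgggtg

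The secondary granule genes shown are Ltf (chr9:111019042-111019270, plus strand) and Ngp (chr9:110419558-110419746, plus strand), followed by the tertiary granule gene Mmp8 (chr9:7558179-7558428, plus strand), each upstream of its gene.
Ltf: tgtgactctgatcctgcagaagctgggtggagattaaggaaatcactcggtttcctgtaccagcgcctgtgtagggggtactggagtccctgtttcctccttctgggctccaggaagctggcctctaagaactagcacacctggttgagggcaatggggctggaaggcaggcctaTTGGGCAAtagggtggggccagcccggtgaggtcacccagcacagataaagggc
Ngp: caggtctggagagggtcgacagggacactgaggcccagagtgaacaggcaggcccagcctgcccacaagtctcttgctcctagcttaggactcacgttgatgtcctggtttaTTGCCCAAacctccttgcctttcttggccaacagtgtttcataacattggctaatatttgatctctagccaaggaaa
Mmp8: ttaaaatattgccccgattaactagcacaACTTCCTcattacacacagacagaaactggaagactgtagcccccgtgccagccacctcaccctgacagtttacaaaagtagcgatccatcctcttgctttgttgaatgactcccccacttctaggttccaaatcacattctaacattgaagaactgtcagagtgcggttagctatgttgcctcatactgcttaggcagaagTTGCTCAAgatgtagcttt

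The ETS-type motif AGGAAGT was present in the windows of all 4 primary granule genes and of none of the 4 secondary granule genes. The shorter core GGAA also occurs in the Ltf and Ngp sequences shown, so the split holds for the longer motif only. Over the same length AGGAAGT was present in 7.69% of the 32851 upstream windows in the table. The C/EBP-type motif was present in the windows of 3 of the 4 secondary granule genes (Ltf, Ngp and Lcn2, but not Camp) and of none of the primary granule genes, against 9.56% of all windows. The windows precede the RefSeq start, and that of Lcn2 lies wholly within the GENCODE span of the gene and partly in an exon. Mmp8 held a match to each motif, with AGGAAGT on the opposite strand. The motifs were chosen after the sequences had been seen. The split between the classes is therefore no test, and the shares over all windows do not measure it. A match describes the letters only and is not evidence of binding.

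Bone marrow had the highest mean of all 10 genes, and its libraries differed little from each other, as the plot of levels by tissue shows. Levels are given as CPM, which are counts relative to library size scaled by the TMM method, and the libraries held between 353605 and 5211133 counts. Libraries were primed at the 3′ end of transcripts, so CPM was not divided by gene length. In bulk tissue, fewer cells of a type and less RNA per cell cannot be told apart.

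**Figure D1:**
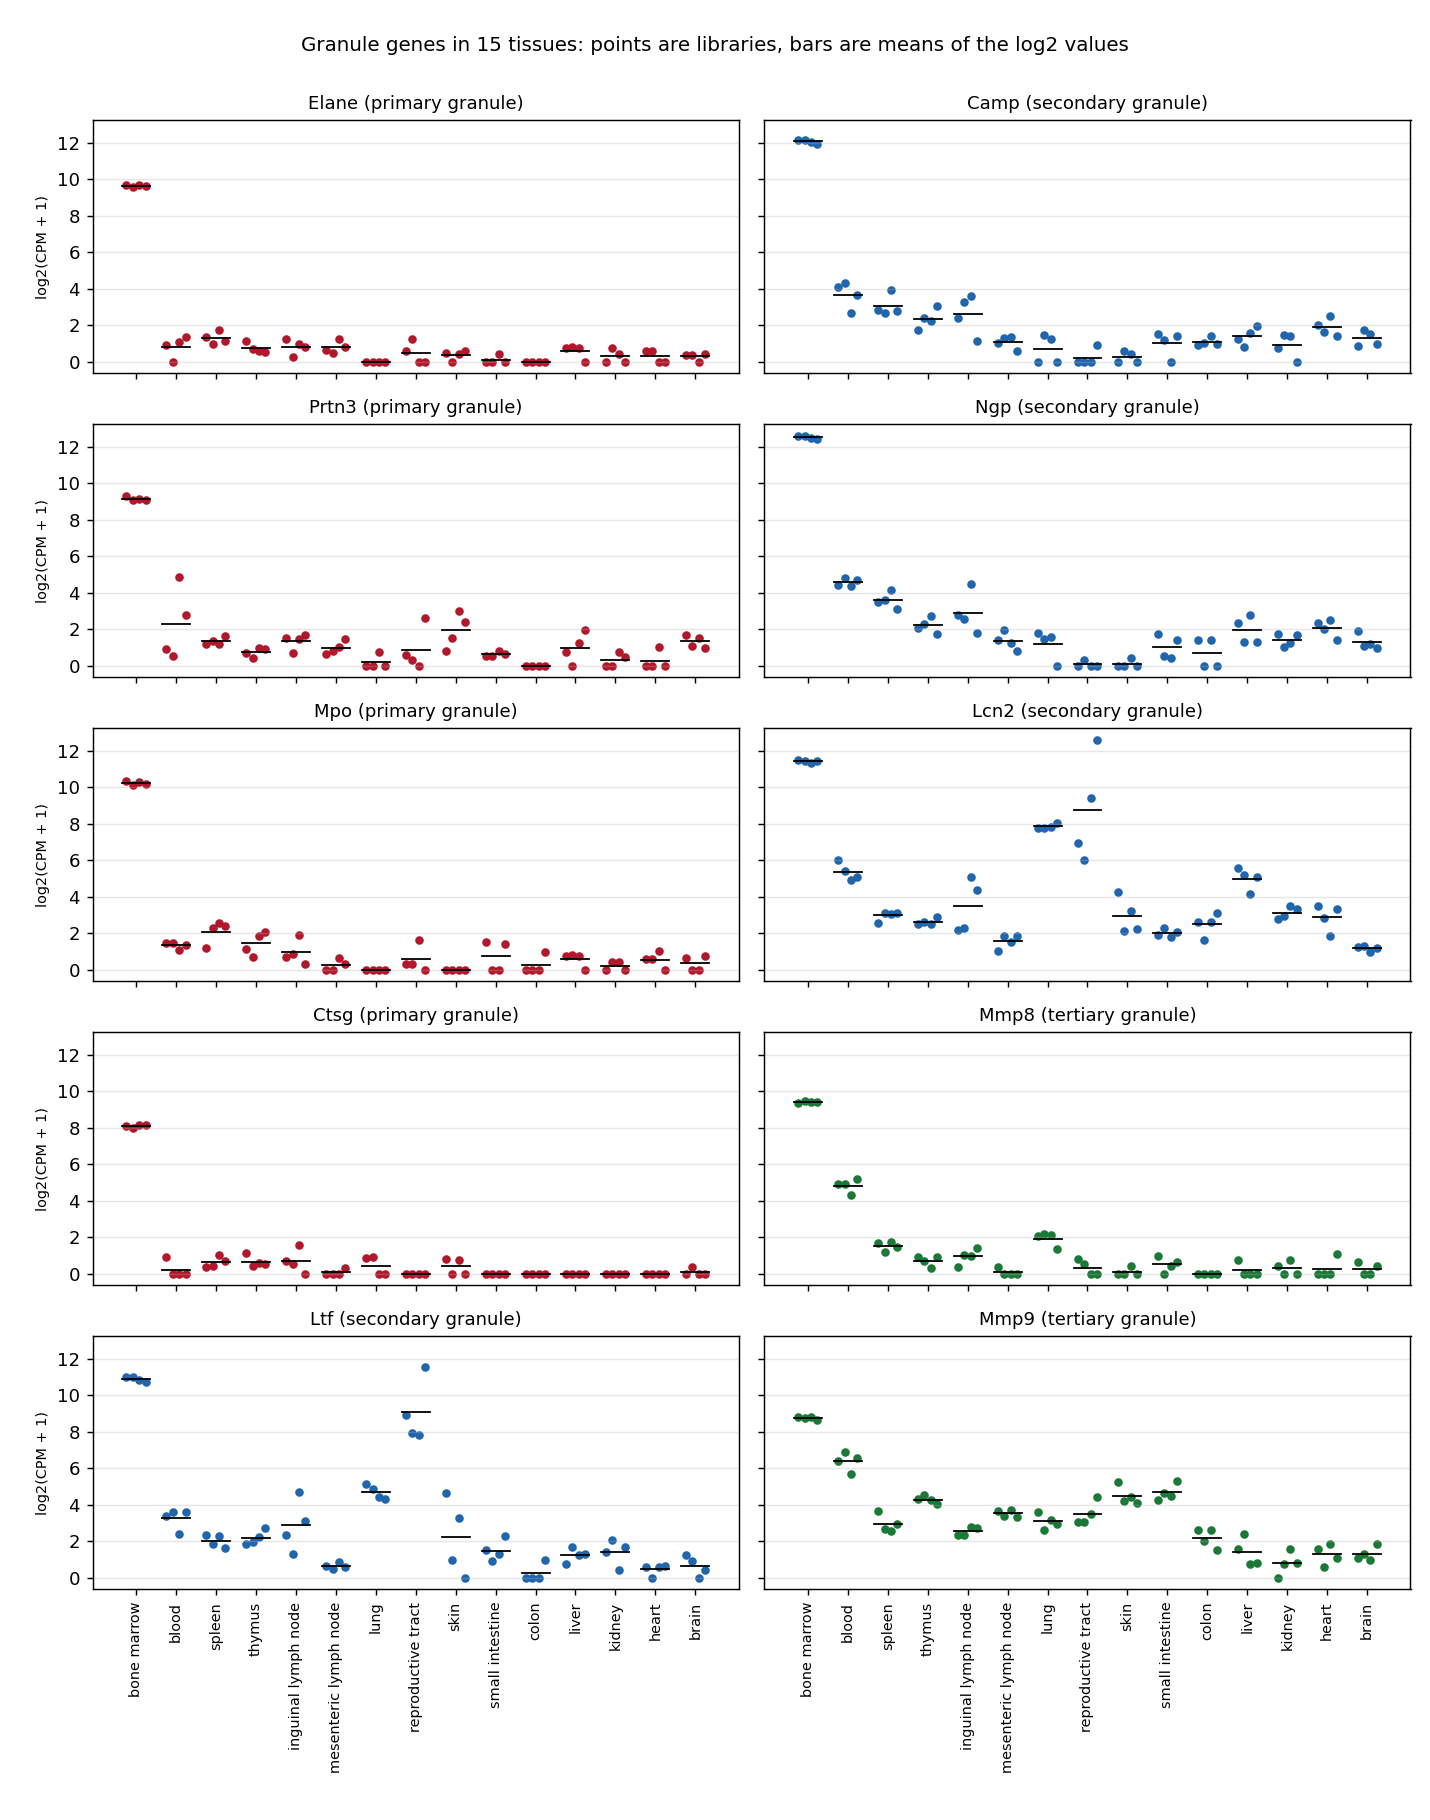
Level of each granule gene in 15 tissues on the log2(CPM + 1) scale, 1 point for each of the 4 libraries of a tissue and a bar for the mean of the log2 values. Bone marrow stood above all other tissues for 8 of the 10 genes, and Ltf and Lcn2 were also high in the reproductive tract.

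Among the primary granule genes, Mpo, which encodes the peroxidase that makes hypochlorous acid, measured 1308, 1113, 1244 and 1154 CPM in the 4 bone marrow libraries. Elane, which encodes neutrophil elastase, measured 835, 773, 820.3 and 795 CPM. Prtn3, which encodes proteinase 3, measured 624, 542, 554 and 547 CPM. The serine protease gene Ctsg, cathepsin G, was the lowest of the class at 271, 249.9, 281 and 287 CPM. The class thus spanned 272 ± 16.1 CPM (Ctsg) to 1205 ± 87.9 CPM (Mpo; SD, n = 4).

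The secondary granule genes were the most abundant of the set in bone marrow. Ngp, neutrophilic granule protein, measured 6208, 6309, 5722 and 5604 CPM. Camp, which encodes the cathelicidin precursor, measured 4587, 4644, 4218 and 3991 CPM. Both exceeded Lcn2, which encodes the siderophore-binding lipocalin 2 (2863, 2829, 2607 and 2821 CPM), and Ltf, which encodes the iron-binding lactoferrin (2064, 2025, 1844 and 1679 CPM). The tertiary granule gene Mmp8, neutrophil collagenase, measured 646, 708, 677 and 693 CPM, and Mmp9, gelatinase B, measured 455, 437, 446 and 398 CPM. The coefficient of variation between the marrow libraries was 3.39% for Elane and 9.32% for Ltf, with the other 8 genes between these values.

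All 4 marrow libraries lay above all 56 libraries of the other tissues for 8 of the 10 genes. The same held for 3.75% of the 18562 genes tested. For Ltf and Lcn2 a library of the reproductive tract was higher. Against the equally weighted mean of the other 14 tissues, all 10 genes were called higher in marrow by edgeR's quasi-likelihood test, where 17.6% of the genes tested were. A call here needs a Benjamini-Hochberg adjusted p below 0.05 and a change of more than 1 on the log2 scale. The mean of the other tissues was, here and below, taken over their log2 levels. A tissue called higher can therefore hold a far lower CPM than bone marrow.

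Below bone marrow, most neighbouring tissues could not be ordered. Of the 14 pairs of tissues next to each other in the order of means, only 1 did not overlap for Elane, Prtn3, Mpo, Ctsg, Ltf, Camp and Lcn2, and only 2 for Ngp, Mmp8 and Mmp9. For the primary granule genes and Camp the pair without overlap was bone marrow and the next tissue. For Ltf it was the reproductive tract and lung, and for Lcn2 lung and blood. Blood came next for Ngp, Mmp8 and Mmp9, and its libraries did not overlap the following tissue. Spleen came next for Elane and Mpo, and its libraries overlapped those of the tissue after it.

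Blood carried the 3 classes at different levels relative to marrow: primary granule genes lowest, secondary granule genes above them and tertiary granule genes highest. The median gene of the primary class was at 0.117% of its marrow level, that of the secondary class at 0.429% and that of the tertiary class at 12.1%. The same median over the 6398 genes with at least 20 CPM in marrow was 89.5%. In single blood libraries the class medians ran from 0.039% to 0.161%, from 0.275% to 0.517% and from 7.2% to 15.9%, so the ranges of the 3 classes did not overlap. Prtn3 went against this order at 1.58% of its marrow level, above all 4 secondary granule genes, of which Lcn2 was highest at 1.51%. This rests on blood replicate 3: without it, an alternative chosen after seeing the data, Prtn3 was at 0.418% of marrow, below Ltf (0.555%) and Lcn2 (1.66%) and above Ngp (0.406%) and Camp (0.354%). The order of the class medians was not particular to blood. Skin had 0.0848%, 0.152% and 2.62%, and small intestine 0.0415%, 0.0658% and 2.98%. Mmp8 was at 0.0125% and 0.0668% there, against 4.12% in blood. Brain, colon, heart, kidney, liver, lung, thymus and inguinal lymph node also had this order of medians. Mesenteric lymph node, reproductive tract and spleen did not.

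**Figure D2:**
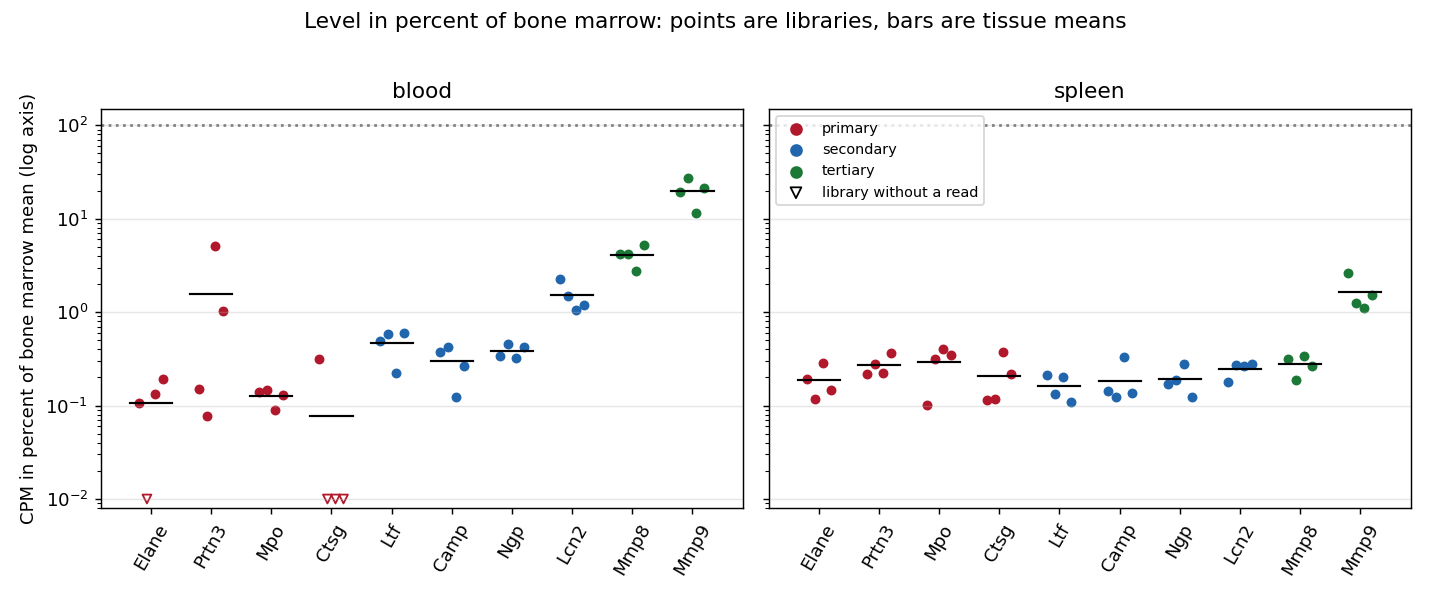
Level of each gene in blood and spleen in percent of its mean CPM in bone marrow, on a log axis, with 1 point per library and a bar for the tissue mean; open triangles at the lower edge are libraries without a read. In blood the means ran from 0.078% for Ctsg to 20% for Mmp9, and in spleen only Mmp9 exceeded 1%.

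Of the primary granule genes, Elane measured 0.85, 0, 1.07 and 1.55 CPM in the 4 blood libraries, and Mpo measured 1.7, 1.77, 1.07 and 1.55 CPM. Ctsg was represented in blood by 1 read in replicate 1, and the pooled marrow level was 2401-fold higher, with an exact 95% interval of 431-fold to 94889-fold that covers counting error only. Prtn3 differed from the other 3 in its spread, with 0.85, 0.44, 28.6 and 5.82 CPM, of which replicate 3 holds 80 reads. Plppr3, which overlaps Prtn3, measured 0, 6.64, 7.15 and 3.88 CPM in the same libraries. Elane, its neighbour, was near 1 CPM in replicate 3, where Prtn3 was highest. Whether the Plppr3 reads account for part of the Prtn3 value was not tested.

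The secondary granule genes were low but measurable in every blood library. Ngp measured 20.4, 27, 19.3 and 25.2 CPM, and Camp measured 16.1, 18.6, 5.36 and 11.6 CPM. Ltf measured 9.34, 11.1, 4.29 and 11.2 CPM. Lcn2 was highest of the class at 63.7, 41.6, 29.3 and 33.4 CPM. Replicate 3 was the lowest blood library for all 4 genes of this class.

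The tertiary granule genes kept the largest part of their marrow level. Mmp8 measured 28.9, 28.8, 18.9 and 35.7 CPM in blood, or 4.12% of the marrow mean. Mmp9 measured 84.1, 119, 50.4 and 93.1 CPM, or 20% of the marrow mean. Its highest blood library (119 CPM) stayed below its lowest marrow library (398 CPM). The class made up 5.89% of the summed CPM of the 10 genes in marrow and 53% in blood (43.8% to 59.6% over the libraries), while the secondary class went from 79.1% to 40.4% (36.8% to 48.3%). The primary class made up 15% in marrow and 6.56% in blood (0.89% to 19.4%), and 2.28% in blood without replicate 3. A high tertiary share was not particular to blood. It was 74.2% in small intestine, 59.2% in mesenteric lymph node, 56.9% in skin and 48.1% in thymus. In these tissues Mmp8 stayed at or below 0.92 CPM, and the mean tertiary sum was 10.7 to 26.1 CPM, against 115 CPM in blood.

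Tested in the 8 libraries of blood and marrow, all 10 granule genes were called lower in blood, where 17.9% of the 11325 genes tested were. All 4 blood libraries lay below all 4 marrow libraries for each of the 10, as they did for 29.8% of the genes tested. The log2 fold change was -9.73 for Elane (SE 0.19, edgeR adjusted p = 1.29e-19) and -9.64 for Mpo (SE 0.16, adjusted p = 1.21e-20). It was -5.75 for Prtn3 (SE 0.37, adjusted p = 1.34e-11) and was -7.65 when replicate 3 of both tissues was left out. Among secondary granule genes it ranged from -8.49 for Camp to -6.14 for Lcn2, with -8.02 for Ngp and -7.77 for Ltf. It was -4.63 for Mmp8 (SE 0.13, adjusted p = 3.96e-17) and -2.34 for Mmp9 (SE 0.16, adjusted p = 5.42e-11). The median over all genes tested was 0.01. These p-values measure the spread between the libraries of a tissue, and the sources used here do not state whether same-numbered libraries come from the same mouse.

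**Figure D3:**
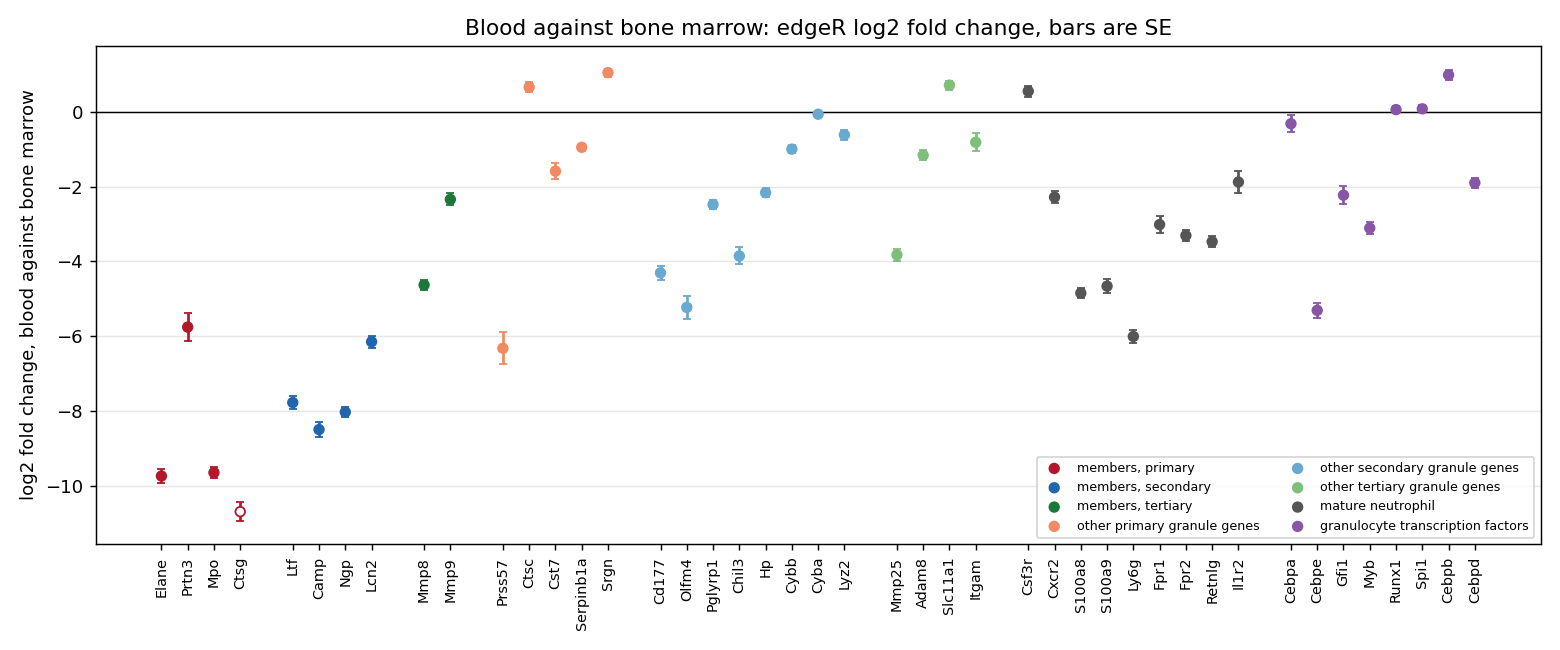
Log2 fold change between blood and bone marrow (edgeR, 4 libraries a tissue) for the granule genes and for lists of related genes, with bars for the SE; the open point is Ctsg, which has 1 read in blood, and Ms4a3, without a read in blood, is not drawn. The tertiary granule genes Mmp8 (-4.63) and Mmp9 (-2.34) lay above all primary and secondary members.

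Mature neutrophil markers were also lower in blood than in marrow. S100a8 and S100a9, which encode the calprotectin subunits, stood at 3.51% and 3.99% of their marrow level, and Ly6g, a neutrophil surface marker, at 1.41%. Of 9 mature neutrophil genes 8 were called lower, where 17.9% of all genes tested were, with a median log2 fold change of -3.31. Their summed level was 1149 to 1920 CPM in blood against 34441 to 39128 CPM in marrow. Cxcr2, a chemokine receptor of released neutrophils, was at 20.9%, close to Mmp9. Csf3r, the receptor for G-CSF, was at 149% of marrow with a log2 fold change of 0.55 that was not called. These markers were chosen for naming after their values were seen, and their part in the difference between the granule classes was not tested.

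Other granule genes also differed within their classes, and their medians did not follow the full order of the members in blood. The median was at 35.4% of marrow for the other primary, 20.45% for the other secondary and 50.5% for the other tertiary granule genes. The tertiary list was again highest, but the primary list lay above the secondary list. Of 6 tested among the other primary granule genes, 3 were called lower and 1 higher in blood, where 17.9% and 16.4% of all genes tested were. Ms4a3, expressed in granulocyte and monocyte progenitors, had 924 reads in marrow and none in blood, so that it was at least 277-fold higher in marrow (floor of 3 reads over the 4 libraries). Prss57, a serine protease gene, had a log2 fold change of -6.32 and Cst7, a cystatin gene, of -1.59. Srgn, which encodes the granule proteoglycan serglycin and is expressed by many blood cells, was higher in blood at 1.05.

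Of 8 other secondary granule genes, 5 were called lower in blood, where 17.9% of all genes tested were. Olfm4 (-5.23), Cd177 (-4.30), Chil3 (-3.85) and Pglyrp1 (-2.48), which encodes a peptidoglycan recognition protein, were called, and each fell less than Ltf, Camp, Ngp and Lcn2 on the log2 scale. Of 4 other tertiary granule genes, 2 were called lower, Mmp25 (-3.82) and Adam8 (-1.16), against the same 17.9%. Itgam (-0.82), an integrin subunit shared with monocytes, and Slc11a1 (0.71), a metal transporter of phagocytes, were not called.

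Of 8 granulocyte transcription factors, 4 were called lower in blood and none higher, where 17.9% and 16.4% of all genes tested were. Cebpe, required for secondary granule formation, had a log2 fold change of -5.31, and the progenitor factor Myb of -3.11. Gfi1, a repressor active in granulocyte precursors, measured -2.23, and Cebpd measured -1.90. All 5 cell cycle genes listed were called lower in blood as well. Of 7 monocyte and macrophage genes 2 were called lower, against 17.9% of all genes tested. The 7 genes summed to 476 to 742 CPM in blood against 1159 to 1293 CPM in marrow.

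Spleen, which holds some granulocyte precursors in mice, also had its highest class median relative to marrow in the tertiary class, but through Mmp9 alone. Mmp9 was at 1.63% of its marrow level and Mmp8 at 0.276%, below the primary granule gene Mpo at 0.292%. The primary and secondary classes overlapped. The class medians were 0.239% of marrow for primary, 0.187% for secondary and 0.951% for tertiary granule genes, against 91.9% over all genes with at least 20 CPM in marrow. Over the libraries they ran from 0.153% to 0.331%, from 0.131% to 0.273% and from 0.714% to 1.47%. All 10 genes were called lower than in marrow, where 14.8% of the 12238 genes tested were, and the libraries of the 2 tissues did not overlap for any of the 10, against 26.4% of the genes tested with all spleen libraries below those of marrow. The log2 fold changes ran from -9.31 for Ltf to -6.04 for Mmp9.

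Mpo measured 1.24, 3.81, 4.86 and 4.17 CPM in spleen and Elane 1.54, 0.95, 2.3 and 1.19 CPM, and both overlapped their blood range. Ngp measured 10.2, 11.1, 16.6 and 7.45 CPM. Mmp9 measured 11.4, 5.39, 4.86 and 6.55 CPM, all far below the lowest blood library at 50.4 CPM. The level of Mmp8 was 2.16, 1.27, 2.3 and 1.79 CPM, also below all blood libraries. The 9 mature neutrophil genes summed to 176 to 255 CPM in spleen, and their median was at 3.41% of marrow, against 10.1% in blood. Their part in the differences between spleen and blood was not tested.

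In the direct comparison of spleen with blood, 6 of the 10 genes had enough counts to be tested, and none of them was a primary granule gene. Of these, 5 were called lower in spleen, where 8% of the 12157 genes tested were. For these 5 all spleen libraries lay below all blood libraries, as for 21.5% of the genes tested. Mmp8 had a log2 fold change of -3.86 (SE 0.28, adjusted p = 1.71e-09 by edgeR) and Mmp9 of -3.64 (SE 0.26, adjusted p = 1.62e-09). Values for Lcn2 (-2.53), Ltf (-1.49) and Ngp (-1.02) were smaller in size. The call of Ltf was lost in the fit of all 60 libraries (-1.48, edgeR adjusted p = 0.159). Ngp lost its call without replicate 2 (-0.94), without replicate 4 (-0.84) and with scaling by library totals (-0.85). Camp was not called at -0.61 (adjusted p = 0.164), but was called without replicate 3 at -1.42 (adjusted p = 0.00029).

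Against the mean log2 level of the other tissues, 6 genes were called higher in spleen (Elane, Mpo, Ctsg, Camp, Ngp and Mmp8), where 17.8% of the genes tested were. Elane, for example, was called at a mean of 1.5 CPM in spleen, with 806 CPM in marrow. Lcn2 was called lower, where 9.16% were, and lost the call without replicate 1 (adjusted p = 0.0717), without replicate 3 (adjusted p = 0.0882) and with library totals (adjusted p = 0.104). Ctsg rests on levels of 0.31 to 1.02 CPM and lost its call without replicate 3 (0.99) and with DESeq2's Wald test (1.03, adjusted p = 0.105). In the same comparison 6 genes were called higher in blood, where 18.1% were: Prtn3, Camp, Ngp, Lcn2, Mmp8 and Mmp9. The log2 fold change of Lcn2 was 1.17 (SE 0.48, edgeR adjusted p = 0.0329), and the call was lost without replicate 1, 2 or 3 in turn. That of Mmp8 was 5.39 (SE 0.21), the highest of the 6, and that of Mmp9 was 3.5 (SE 0.16). Prtn3 in blood measured 3.20, of which replicate 3 at 28.6 CPM was the highest library, and 1.86 in the lowest of the fits that left out a replicate.

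The female reproductive tract was high in the secondary granule genes Ltf and Lcn2 without Camp and Ngp. Its Ltf mean of 1005 CPM was the highest outside marrow, as was its Lcn2 mean of 1760 CPM. Ltf measured 491, 246, 228 and 3056 CPM in replicates 1 to 4, and Lcn2 measured 124, 63.4, 677 and 6174 CPM. Camp was represented by 0.85 CPM in replicate 4 and by no read in the other 3 libraries. Ngp was represented by 0.23 CPM in replicate 2 and no read elsewhere. Ctsg had no read in any of the 4 libraries.

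Ltf and Lcn2 were called higher in the reproductive tract than in the mean of the other tissues, where 23.1% of the genes tested were. The log2 fold change was 8.07 for Ltf (SE 0.26, edgeR adjusted p = 7.53e-34) and 6.99 for Lcn2 (SE 0.28, adjusted p = 2.8e-29). Without replicate 4 these were 6.70 and 4.24, and without replicates 3 and 4 of the reproductive tract, an alternative chosen after seeing the data, they were 6.70 and 2.86, with both genes still called. Camp and Ngp were called lower, where 5.31% were, and Ngp lost its call without replicate 3.

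**Figure D4:**
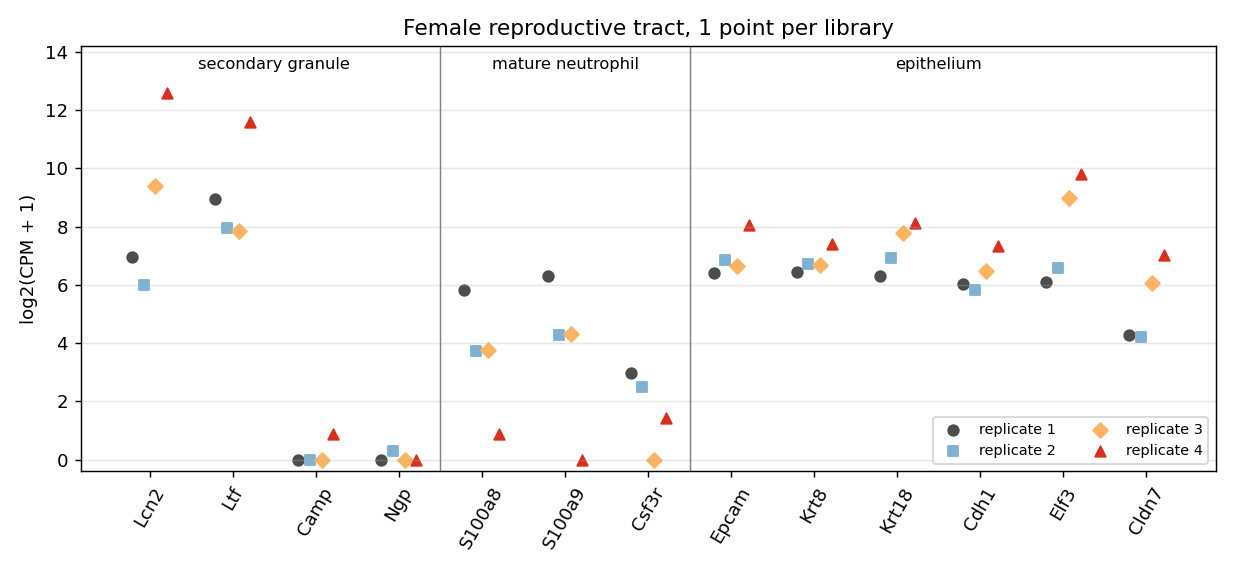
Levels on the log2(CPM + 1) scale in the 4 libraries of the female reproductive tract for secondary granule, mature neutrophil and epithelial genes, with 1 symbol per replicate. Replicate 4 was highest for Lcn2 (6174 CPM), Ltf (3056 CPM) and Elf3 (897 CPM), and lowest for S100a8 and S100a9, while Csf3r was lowest in replicate 3; Retnlg, a neutrophil gene not drawn, was highest in replicate 4.

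Both Ltf and Lcn2 are also made by secretory epithelia, the uterine lining among them. In replicates 1 to 4 the epithelial transcription factor gene Elf3 measured 67.7, 94.5, 505 and 897 CPM, and the tight junction gene Cldn7 measured 18.4, 17.6, 66.3 and 129 CPM. The 6 epithelial markers summed to 398 to 1902 CPM over the libraries. The neutrophil gene S100a8 measured 55.1, 12.3, 12.4 and 0.85 CPM and S100a9 measured 78.8, 18.3, 18.6 and 0 CPM. The 9 mature neutrophil genes summed to 46.4 to 169 CPM, and Fpr1 was at 0. Replicate 4, the highest in Ltf and Lcn2, was the highest in Elf3 and Cldn7 and the lowest in S100a8 and S100a9. The neutrophil genes did not vary together, since Retnlg, another gene of that list, was highest in replicate 4 (7.25, 5.11, 20.7 and 50.9 CPM). Csf3r and Cxcr2 were lowest in replicate 3, at 0. What part of the Ltf and Lcn2 level goes with either marker list was not tested. Replicate 3 was the shallowest library of all 60, with 353605 counts.

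Lung showed a similar division within the secondary class at a lower level. Lcn2 measured 221, 218, 224 and 260.1 CPM, and Ltf measured 34, 27.8, 20.5 and 19 CPM. Camp stayed at or below 1.74 CPM and Ngp at or below 2.43 CPM. No read of Elane or Mpo was found in lung, so that marrow was at least 1403-fold and 2100-fold higher, respectively.

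Ltf, Lcn2 and Mmp8 were called higher in lung than in the mean of the other tissues, where 16.8% of the genes tested were, with log2 fold changes of 2.36, 3.86 and 1.90. Compared directly with blood, 5 of the 10 genes could be tested. Ltf was higher in lung by 1.62 on the log2 scale (SE 0.29, edgeR adjusted p = 4.76e-05) and Lcn2 by 2.64 (SE 0.18, adjusted p = 5.79e-11), where 28% of the 10709 genes tested were higher. The Ltf call was lost in the fit of all 60 libraries (1.5, edgeR adjusted p = 0.0556). Ngp (-3.74), Mmp8 (-3.13) and Mmp9 (-3.33) were lower, where 23.4% were, and for these 3 all lung libraries lay below all blood libraries, as for 36.9% of the genes tested. The epithelial markers summed to 509 to 597 CPM in lung against 6.59 to 17.8 CPM in blood, and the mature neutrophil genes to 114 to 262 CPM. Their part in these differences was not tested.

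Mmp9 had means above 10 CPM in several tissues outside marrow and blood, and Mmp8 did not. It measured 17.9, 24.3, 21.2 and 39 CPM in small intestine, 37.1, 17.1, 20.4 and 16 CPM in skin and 18.8, 22.2, 17.8 and 15.5 CPM in thymus. Mmp8 stayed at or below 0.92 CPM in all libraries of these 3 tissues. Against the mean log2 level of the other tissues, Mmp9 was called higher in small intestine (1.60, where 19.9% of genes were called). It was also called higher in skin (1.45, where 18.4% were) and in thymus (1.14, where 18.9% were). The thymus call was lost without replicate 2 (0.91).

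Skin also had the highest Prtn3 mean after marrow and blood, with 0.77, 1.9, 7.12 and 4.24 CPM, while Elane did not exceed 0.47 CPM there and Mpo had no read. Prtn3 was called higher in skin at 1.60 (SE 0.56, edgeR adjusted p = 0.0153). It had 36 reads there, 21 of them in replicate 3. The overlapping gene Plppr3 measured 7.66, 4.75, 6.11 and 3.3 CPM in the same libraries. Whether its reads account for part of the Prtn3 value in skin was not tested. Thymus had calls for Mpo (1.42) and Ctsg (1.58), at 0.64 to 3.2 CPM and 0.32 to 1.18 CPM, and Ctsg lost its call without replicate 1 and with DESeq2's Wald test (1.12, adjusted p = 0.0788). Liver held Lcn2 at 47, 35.4, 16.6 and 32.9 CPM, without more than 5.97 CPM of Ngp in any library.

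The inguinal lymph node had calls for Ctsg (1.78), Camp (1.24) and Ngp (1.37), where 17.1% of the genes tested were called higher. The level of Ngp was 5.88, 4.85, 21 and 2.4 CPM and that of Ctsg 0.59, 0.42, 1.98 and 0 CPM, so that replicate 3 was the highest library. Ltf was 24.7 CPM and S100a9 53.9 CPM in replicate 3, each above its other libraries. Without replicate 3 the values were 0.84 for Ctsg, 0.92 for Camp and 0.64 for Ngp, and none of the 3 was called. No granule gene was called higher in brain, heart, kidney, liver, colon or mesenteric lymph node, where 27.7%, 20.7%, 21.8%, 18.4%, 17.7% and 17.2% of the genes tested were.

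Calls in the lower direction in these tissues concerned secondary and tertiary granule genes and no primary granule gene. Most primary granule genes had few or no reads there, so a lower call was hardly possible and its absence does not set the classes apart. Without a read, Elane in colon (-3.99) and Mpo in skin (-4.26) were still not called. Mmp9 was called lower in brain, colon, heart, kidney and liver, and Ltf in brain, colon, heart and mesenteric lymph node. Camp was called lower in kidney, mesenteric lymph node and skin, Ngp in skin and small intestine, and Lcn2 in brain, mesenteric lymph node, small intestine and thymus. Mmp8 was called lower in colon, where it had no read. Among all genes tested the lower calls were 16.1% in brain, 14.4% in colon, 12.9% in heart, 9.51% in kidney, 16.7% in liver, 4.57% in mesenteric lymph node, 6.38% in skin, 8.5% in small intestine and 12.1% in thymus.

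The genes most like each member over the 15 tissue means, by Pearson correlation of log2(CPM + 1), are a description, since bone marrow is the extreme point for most of them. Only genes tested in the fit of 60 libraries were ranked, without gene models and accession-like names. Among these, Camp and Ngp had each other as nearest gene (r = 0.995). Ltf and Lcn2 also had each other (r = 0.937), followed in both cases by Acod1, which encodes the itaconate-producing enzyme of activated myeloid cells. Elane was most like the eosinophil ribonuclease gene Ear6 (r = 0.993), then Fcnb and Epx, the eosinophil peroxidase gene. Mpo was most like Elane, Ear6 and Btnl10, and Ctsg most like Igll1 (r = 0.994), a gene of early B cells, then Fcnb and Ms4a3. Prtn3 was nearest to Hbq1b, Redrum and Slfn14. Mmp8 was nearest to Trem3 (r = 0.986), a myeloid receptor gene, then to Cyp4b1-ps2 and Mrgpra2a. Mmp9 had the weakest nearest gene, Alox15 (r = 0.897), then Ltb4r1, the leukotriene B4 receptor gene, and Dcaf12. Between members, r ran from 0.514 (Camp and Lcn2) to 0.995 (Camp and Ngp).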

How the data were processed

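The authors deposited counts of reads per gene from 3′ libraries made with barcoded oligo(dT) primers, per the labels' protocols; no molecular identifiers are described. FastQC, STAR, featureCounts and the build mm10 are named per the submitters' processing notes, and no source used here gives their versions, annotation or strand setting. Of 54532 genes, 17394 had no read. Gene positions are from GENCODE M21.

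Counts were tested with edgeR 4.0.16 (limma 3.58.1, R 4.3.3) by two-sided quasi-likelihood tests with TMM scaling, after filterByExpr (minimum count 10, minimum total 15). All 60 libraries entered the fit of each tissue against the equally weighted mean log2 level of the other 14. Each pair used its own 8 libraries. The SE is the log2 fold change divided by the square root of F. Alternatives were DESeq2 1.42.0 (Wald test and size factors), library totals, no filter, a replicate block, other class assignments and leaving out replicates. Scripts were tested on simulated data. Named were all members, the 3 most correlated genes of each, and up to 4 genes of each list of other granule genes and transcription factors with at least 20 CPM in marrow, blood or spleen, by size of change. Neutrophil and epithelial markers were named after their values were seen. Members and lists were chosen with earlier results of these data known.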

Additional observations from a re-analysis of the deposited data

Results flagged for a closer look

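In 41 groups of 4 libraries with a mean of at least 5 CPM, the highest or lowest library was tested for its gap to the others against Dixon's 95% critical value, which chance exceeds in about 1 of 20 groups. In the reproductive tract, replicate 4 stood above the other libraries for Ltf (3056 CPM) and Lcn2 (6174 CPM). In bone marrow, replicate 1 stood above the others for Prtn3 (624 CPM) and replicate 3 below them for Lcn2 (2607 CPM). In spleen, replicate 3 stood above the others for Camp (14.3 CPM) and replicate 1 below them for Lcn2 (4.94 CPM). In lung, replicate 4 stood above the others for Lcn2 (260.1 CPM).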

How the results depend on the processing

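Of the log2 fold changes of single members recomputed under the alternatives, 863 kept direction and side of the threshold, 20 lost and 10 gained a call, and 6 reversed. Counts of members called and class medians are not part of this tally, and those that moved are given below. The 10 calls in each of blood and spleen against bone marrow stayed at 10 under all alternatives run. Scaling by library totals left no Lcn2 call in spleen (0 lower), raised the spleen secondary median to 0.248%, and shifted all log2 fold changes by 0.26 for blood and 0.42 for spleen against marrow, and by 0.23 (blood), 0.39 (spleen), 0.37 (lung) and 0.44 (reproductive tract) against the other tissues. With it the calls over all genes went from 1854 higher and 2022 lower to 2604 and 1568 in blood against marrow, and from 1988 and 1817 to 3479 and 1217 in spleen against marrow. Against the other tissues they went from 3366 and 3297 to 3986 and 2862 (blood), 3302 and 1701 to 4859 and 982 (spleen), 3124 and 2277 to 4079 and 1457 (lung), and 4283 and 986 to 6034 and 412 (reproductive tract). Without a filter, 1 member was lower in lung against the other tissues and 6 against blood, and DESeq2's Wald test called 4 lower in lung, against 0 and 3 in the edgeR fits. In the fit of all 60 libraries, lung against blood gave 1 higher and 7 lower, and spleen against blood gave 1 higher. Over fits leaving out a replicate, members lower in spleen ranged from 0 to 1, members lower in the reproductive tract from 1 to 2, and members higher in spleen than in blood from 0 to 1. Counting Mmp8 as secondary gave tertiary values of 20% in blood (19.99) and 1.63% in spleen. Reversed values were Elane in the reproductive tract (0.42; -0.62 to 0.87 leaving out a replicate, negative without replicate 2), Prtn3 there (-0.48; -1.69 to 0.32, positive without replicate 3), Mmp9 there (0.10; -0.19 to 0.41, negative without replicate 4, and -0.21 without replicates 3 and 4 together), and Mmp9 in lung (-0.20; -0.30 to 0.052, positive without replicate 2, and 0.16 with library totals); none of these was called. The cause was not tested.

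Same-numbered libraries of the tissues compared in pairs correlated at -0.02 to 0.04 in their deviations from the tissue means, so the numbers were not taken to pair the samples. A replicate block left the number of members called as it was in the comparisons for which it was run, for example at 10 in blood against bone marrow; lower calls in the 10 tissues other than marrow, blood, spleen, lung and reproductive tract were not recomputed under this or any other alternative. Depth limits the primary granule genes most: outside marrow they rest on few reads, and where none was read a level of up to 3 reads over the 4 libraries of a tissue remains possible.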
